A study of Drosophila melanogaster with 3 samples.

Results

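Binding of the forkhead factor fkh was examined at 6 genes that decide which stage of the fly is made, or that carry the juvenile hormone signal. They are chinmo, br, Eip93F, Kr-h1, Met and gce. The genes were listed by name for their roles, with earlier results of these data known, and all 6 were found among 13945 protein-coding genes on chromosome arms 2L, 2R, 3L and 3R and chromosomes 4 and X of the dm6 build (Ensembl release 115). For each gene a peak was counted when its summit, the position of highest signal, lay in the gene body or within 5 kb of it. The chromatin came from whole prepupae of Drosophila melanogaster, males and females pooled, of a transgenic line with a green fluorescent protein fused to the C terminus of fkh, and was precipitated with an antibody to that protein. The labels give an age of 24 days, which is longer than development to this stage takes, so its unit is uncertain. The 3 samples are biological replicates of 1 group, so there was no comparison between conditions. All tissues of the animal were pooled, so no peak can be placed in a tissue, and the tagged line is the only genotype used.

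Metamorphosis is steered by transcription factors that follow each other. chinmo, a BTB zinc finger protein, is known to maintain the larval state. br (broad), of the same protein class, is the pupal specifier and is induced by the steroid hormone ecdysone. Eip93F (E93) is the adult specifier. In many insects juvenile hormone keeps the larva from advancing. In the fly this hormone acts through a pair of related bHLH-PAS receptors, Met and gce. They partner with the coactivator tai and induce the zinc finger gene Kr-h1. The prepupa is the stage at which larval programmes are shut down and pupal ones begin. fkh itself is known as a regulator of the salivary gland and gut, and forkhead proteins bind a short T-rich word.

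The peaks that passed the authors' IDR step, which asks for reproducibility, form the optimal list of 9531 peaks. A wider list called on the replicates together (the pooled list) held 30000 regions, background included. A single control served every replicate, and its origin is not given in the sources used here. The authors' signal, a score per peak on a scale that is not stated, ran from 160.0 to 6080.8 in the optimal list, with a median of 294.1. Peaks on X, where br, Met and gce lie, had a median of 272.1 and autosomal peaks 298.5. The lists hold no read counts, so the depth behind each value is unknown, and intervals below cover counting error only. Each of the 3 replicate lists held 30000 regions. Their signals are not on 1 scale, so replicates were compared by rank, with rank 1 for the strongest region.

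The sequences below were picked to show the forkhead word at each gene with an optimal summit, so they are not a sample of the summits: 8 of the 9 optimal summits shown hold the word, against 15 of all 24. They include weak summits, such as that in the first chinmo intron, and leave out some stronger ones. Each is 101 bases centred on the summit, read from the release 6 assembly. Capitals mark the forkhead word (T, A or G, TTT, A or G, then C or T) on either strand, so that words on the minus strand read as their reverse complement. Where a summit lay in a 5' UTR exon, only the 29 bases around the word are shown, on the strand that carries the word. The sequence at Eip93F is included because it is the strongest region near a gene with no optimal peak. It and the strongest gce summit held no word.
chinmo, 2435 bp upstream of its start, chr2L:1648773-1648873, plus strand: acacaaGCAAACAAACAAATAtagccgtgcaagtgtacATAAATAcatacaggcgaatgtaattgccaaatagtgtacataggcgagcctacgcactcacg
chinmo, first intron, 841 bp downstream of its start, chr2L:1652049-1652149, plus strand: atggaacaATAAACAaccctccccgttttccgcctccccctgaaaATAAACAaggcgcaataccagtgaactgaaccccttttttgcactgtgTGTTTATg
Kr-h1, intron, 6002 bp downstream of its start, chr2L:6088555-6088655, plus strand: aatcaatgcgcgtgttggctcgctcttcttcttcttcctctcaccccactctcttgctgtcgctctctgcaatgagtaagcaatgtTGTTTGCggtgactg
Kr-h1, 2032 bp upstream of its start, chr2L:6080521-6080621, plus strand: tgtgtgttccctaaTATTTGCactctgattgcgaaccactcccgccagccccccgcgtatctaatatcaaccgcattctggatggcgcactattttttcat
Kr-h1, 5' UTR exon, a 29-base site at the summit 442 bp downstream of its start, chr2L:6083055-6083083, minus strand: gtgtttctgtgTGTTTATtatctgctgag
br, intron, 20797 bp downstream of its start, chrX:1595879-1595979, plus strand: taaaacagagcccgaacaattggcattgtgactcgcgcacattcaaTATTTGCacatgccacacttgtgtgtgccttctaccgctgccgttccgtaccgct
gce, intron, 5782 bp downstream of its start, chrX:15303498-15303598, plus strand: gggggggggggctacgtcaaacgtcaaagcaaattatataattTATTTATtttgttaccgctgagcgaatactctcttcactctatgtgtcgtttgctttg
gce, 674 bp downstream of its start, chrX:15298390-15298490, plus strand: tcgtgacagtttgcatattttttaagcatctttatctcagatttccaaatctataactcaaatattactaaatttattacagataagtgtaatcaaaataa
Met, 5' UTR exon, a 29-base site at the summit 116 bp downstream of its start, chrX:11616203-11616231, minus strand: gcacttattttTGTTTATactaagtgatt
Eip93F, weaker region 4902 bp upstream of its start, chr3R:21944162-21944262, plus strand: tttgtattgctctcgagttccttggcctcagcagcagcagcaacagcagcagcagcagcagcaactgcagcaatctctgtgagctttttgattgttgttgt

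Of the 6 genes, 5 had at least 1 optimal summit, and Eip93F had none. The 5 genes shared 24 summits in 20 intervals, with 9 at Kr-h1, 5 at gce, 4 at chinmo, 3 at br and 3 at Met. The same window held an optimal summit at 56.6% of all protein-coding genes. Among genes of like window length the share ran from 55.2% (for Met) to 74.8% (for chinmo). The exact 95% interval of the 5 of 6 (35.9% to 99.6%) holds all these shares. With 6 genes named for their roles, it is too wide to decide whether the presence of peaks sets them apart. In the pooled list all 6 had a region, 85 in all, against 66.0% of protein-coding genes. The genes differed more in how densely the summits lay. Per 10 kb of window, Kr-h1 held 3.77 optimal summits, Met 1.98, gce 1.60, chinmo 0.631 and br 0.301, against a median of 0.718 over all protein-coding genes. Kr-h1, Met and gce were above that median and chinmo, br and Eip93F below it, but this split depends on the comparison. By count among genes of like window length, chinmo was above the median, with 4 against 3, and of the 3 Met summits 2 lay at the starts of other genes.

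**Figure D1:**
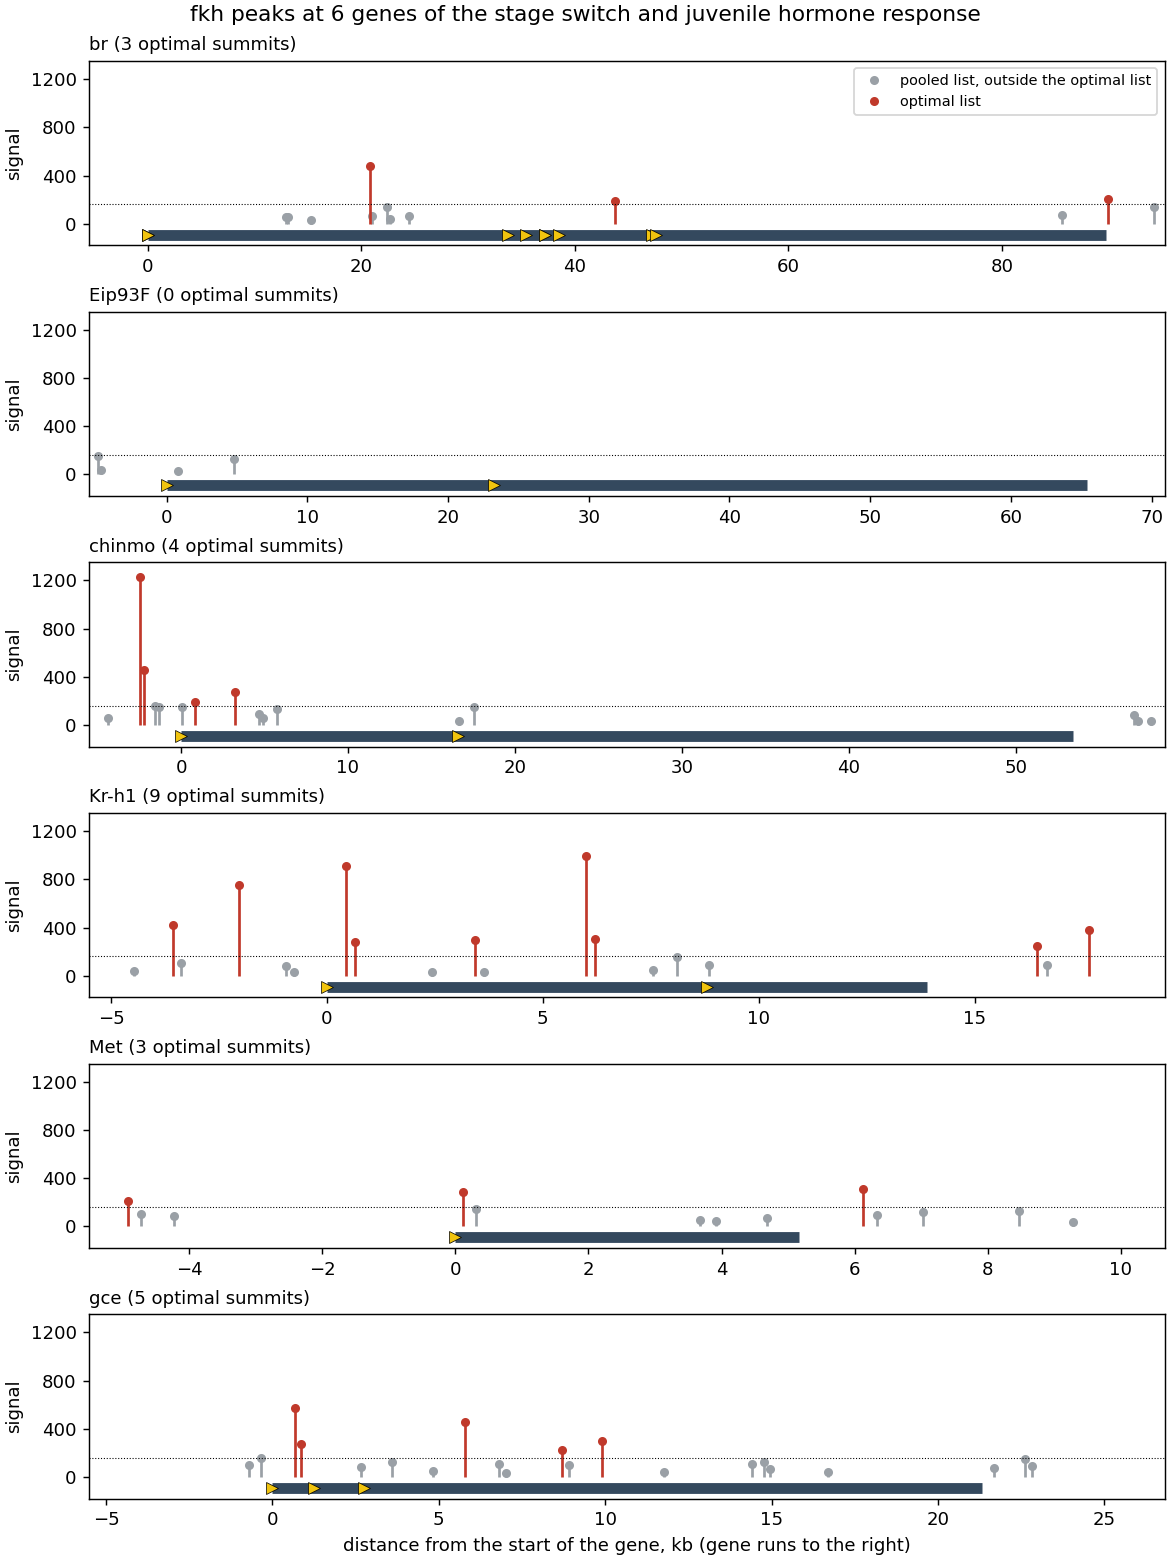
Each panel plots the authors' signal of every pooled-list summit in a gene's window against its distance in kb from the start of the gene; red stems are in the optimal list, grey stems are not, the dark bar is the gene body, yellow arrowheads are transcription start sites and the dotted line is the weakest optimal signal, 160.0. Kr-h1 carries 9 red stems, chinmo 1 tall pair upstream of its start, and Eip93F none.

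Kr-h1 (FBgn0266450, 2L, 6082603 to 6096498, plus strand), the gene induced by the juvenile hormone receptors, had the most summits of the 6. That held with the 5 kb window, while in gene bodies alone, or with 1 or 2 kb on each side, Kr-h1 and gce had 5 each. The 9 summits of Kr-h1 placed it at percentile 98.7 of all protein-coding genes by count. Among the 7114 genes with a window 0.5 to 2 times as long, whose median was 1, it stood at 98.8. The strongest lay in an intron at 6088605, with a signal of 996.6 and rank 455 in the optimal list. It ranked 456, 755 and 298 in replicates 1, 2 and 3, a mean of 503.0 ± 232.1 (SD, n = 3). The next lay in the 5' UTR, 442 bp downstream of the first start site (Kr-h1-RA) at 6083045, with a signal of 911.3 and replicate ranks of 683, 740 and 320. Another, between genes 2032 bp upstream of that start at 6080571, had a signal of 755.6 and ranks of 717, 1755 and 802. The start nearest to that summit was that of the non-coding gene lncRNA:CR44773, 807 bp away. These 3 summits lay from 2032 bp upstream to 6002 bp downstream of the first start, and none ranked below 1755 in any replicate.

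The 6 other Kr-h1 summits had signals from 250.4 to 421.3. The summit at 6079034 (421.3) lay in the non-coding gene lncRNA:CR9162, 581 bp from its start. Those at 6083247 (277.2) and 6088811 (303.1) shared an interval with a stronger summit, and one at 6086041 (295.6) lay in an intron. The last 2 were nearest to the starts of protein-coding neighbours: 6099055 (250.4) lay 89 bp from that of CG9175, and 6100252 (375.8) lay 125 bp from that of stai, the stathmin gene. The second Kr-h1 start (Kr-h1-RB), which lies inside the gene and is also the start of CG45075, had no optimal summit within 1 kb. Its nearest pooled region, 50 bp away, had a signal of 91.6. All 9 summits overlapped the 9531 strongest regions of each of the 3 replicates. Counting each region's own summit, each replicate's 9531 strongest regions placed 11, 10 and 10 summits in the window.

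chinmo (FBgn0086758, 2L, 1651258 to 1704682, plus strand), the larval specifier, carried the strongest single peak of the 6 genes. It lay between genes at 1648823, 2435 bp upstream of the first start site, and had a signal of 1225.3 and rank 261 in the optimal list. It ranked 256, 341 and 169 in the replicates, a mean of 255.3 ± 86.0 (SD, n = 3). By its strongest signal chinmo stood at percentile 95.2 of protein-coding genes, but its 4 summits were at percentile 58.8 among the 878 genes of like window length. A second summit in the same interval, at 1649022, had a signal of 455.7. The annotated start nearest to both is that of the small non-coding gene lncRNA:CR45695, 1660 bp from the stronger. The other 2 were intronic, 1 in the first intron at 1652099 (193.2) and 1 in the next intron at 1654476 (271.3), 841 and 3218 bp from the start.

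The first-intron summit of chinmo was variable, with ranks of 11373, 9472 and 5566, and was outside the 9531 strongest regions of replicate 1. The farther one ranked 6092, 4943 and 5083 and was inside them in all 3. No optimal summit lay within 10 kb of the second chinmo start (chinmo-RA and chinmo-RF), where the nearest was 13371 bp away. Most of the 53425 bp of the gene held no optimal summit: all 4 lay within 3218 bp of the first start. Just outside the 5 kb window, 5.69 kb beyond the end of the gene, lay a summit with a signal of 1147.8, whose nearest start was that of CG17660.

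br (FBgn0283451, X, 1575132 to 1664869, plus strand), the pupal specifier, had 3 summits in a window of 99.7 kb. That is percentile 79.6 of all protein-coding genes but 45.8 among the 452 genes of like window length, whose median was 3.5. The strongest, in an intron at 1595929, had a signal of 481.0 and replicate ranks of 2246, 2886 and 2211, a mean of 2447.7 ± 380.0 (SD, n = 3). It lay 12940 bp from the nearest br start (br-RH). The second, at 1618912, had a signal of 191.5 and ranks of 13026, 5275 and 10178, and the third, at 1665036, had 207.5 and ranks of 10562, 5395 and 8116. Both were inside the 9531 strongest regions of replicate 2 and outside those of replicate 1. Asking for all remaining replicates, the count for br was 1 without replicate 2, 1 without replicate 3 and 2 without replicate 1.

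The weak br summits were also close to other genes. The one at 1618912 lay 757 bp from a start of Mur2B, a mucin-related gene on the opposite strand whose body spans the whole of br. The one at 1665036 lay past the end of br and 16 bp from the start of dor, a gene of endosome and lysosome fusion. None of the 9 annotated br start sites had an optimal summit within 1 kb. The start shared by 8 of the 16 br transcripts, at 1612341, was 6571 bp from the nearest one, and no pooled region lay within 1 kb of any br start either. The 1 br summit recovered among the 9531 strongest regions of all 3 replicates was thus intronic and away from the annotated starts.

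Eip93F (FBgn0264490, 3R, 21949114 to 22014539, plus strand), the adult specifier, had no optimal summit in its 75.4 kb window. Of the 700 protein-coding genes with like windows, 26.7% also had none. The pooled list held 4 regions there, with signals of 152.8, 34.0, 31.6 and 130.4 from upstream to downstream, against 160.0 for the weakest optimal peak. The strongest lay 4902 bp upstream of the start at 21944212 and had rank 9992 in the pooled list. It ranked 11648, 12180 and 6060 in the replicates, inside the 9531 strongest of replicate 3 and not of the other 2. The region of 130.4, in an intron, ranked 12383, 9919 and 13546. The nearest optimal summit was a weak one 7.51 kb upstream of the start, with a signal of 169.8 and rank 9011. Its nearest start site was that of Eip93F, so with a window of 10 kb the count for Eip93F was 1. Absence here means under the authors' threshold within 5 kb, and the lists cannot show that fkh was not bound.

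gce (FBgn0261703, X, 15297766 to 15319074, plus strand) and Met (FBgn0002723, X, 11616124 to 11621280, plus strand), the receptor genes of juvenile hormone, differed in where their summits lay. All 5 gce summits were in the gene body. The strongest, at 15298440, had a signal of 572.5 and replicate ranks of 2009, 1274 and 2091, a mean of 1791.3 ± 449.9 (SD, n = 3). It lay 674 bp downstream of the first gce start and 569 bp upstream of the second, which serves gce-RC and gce-RG, and 223 bp from the start of the antisense gene asRNA:CR44429. A second summit of its interval, at 15298642, had 276.0. The others were at 15303548 (460.7, ranks 2865, 1991 and 3483), 15306476 (223.4, ranks 8326, 8641 and 4717) and 15307682 (299.0, ranks 4177, 6164 and 5050). All 5 were inside the 9531 strongest regions of every replicate. By count gce stood at percentile 92.6, and at 81.1 among the 2847 genes of like window length.

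Only 1 of the 3 Met summits lay in the gene, at 11616240, 116 bp downstream of its single start site. Its signal was 282.7 and its ranks were 4193, 4751 and 8956, a mean of 5966.7 ± 2603.8 (SD, n = 3). The start of RPA3, a replication protein A subunit gene on the opposite strand, lay 400 bp away, so the peak lay within 500 bp of both starts. The other 2 belonged by position to neighbours. The summit at 11622257 (313.6) lay 242 bp from the start of the receptor phosphatase gene Ptp10D, and that at 11611207 (209.8) lay 445 bp from the start of CG2247. The latter ranked 9730 in replicate 2, just outside the 9531 strongest regions. In the pooled list the genes went both ways against the median of genes of like window length. Kr-h1 had 19 regions against 3, gce 21 against 5, Met 13 against 2 and chinmo 16 against 11. In contrast, br had 12 against 13.5 and Eip93F 4 against 11. These counts take in regions at neighbours, such as Ptp10D and CG2247 for Met, CG17660 for chinmo and Top1 for gce.

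The order of the genes by the strongest region in their window was the same in all 3 replicates. chinmo came first, then Kr-h1, gce, br, Met and Eip93F. The place of chinmo rests on its peak 2435 bp upstream, whose nearest start is that of lncRNA:CR45695. In gene bodies alone, its strongest optimal signal was 271.3, below Kr-h1 (996.6), gce (572.5), br (481.0) and Met (282.7). It was also 271.3 with 1 or 2 kb on each side. For Kr-h1 the best ranks were 456, 740 and 298, which overlap the range of chinmo (169 to 341), so these neighbours are separated within each replicate but not by their ranges. gce (1274 to 2091) and br (2211 to 2886) did not overlap, nor did br and Met (3284 to 4238), nor Met and Eip93F (6060 to 11648). For Met, however, the ranks of 3284 and 4238 came from the summit by the start of Ptp10D. The summit in Met itself ranked 4193, 4751 and 8956, so Eip93F, at 6060, came before it in replicate 3. By that summit the ranges of Met and Eip93F overlap. For Eip93F the best ranks were 11648, 9919 and 6060. Ranks within a list depend on all other regions in it, so small gaps in this order carry no size of effect. The order is a description of 3 replicates and was not tested.

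**Figure D2:**
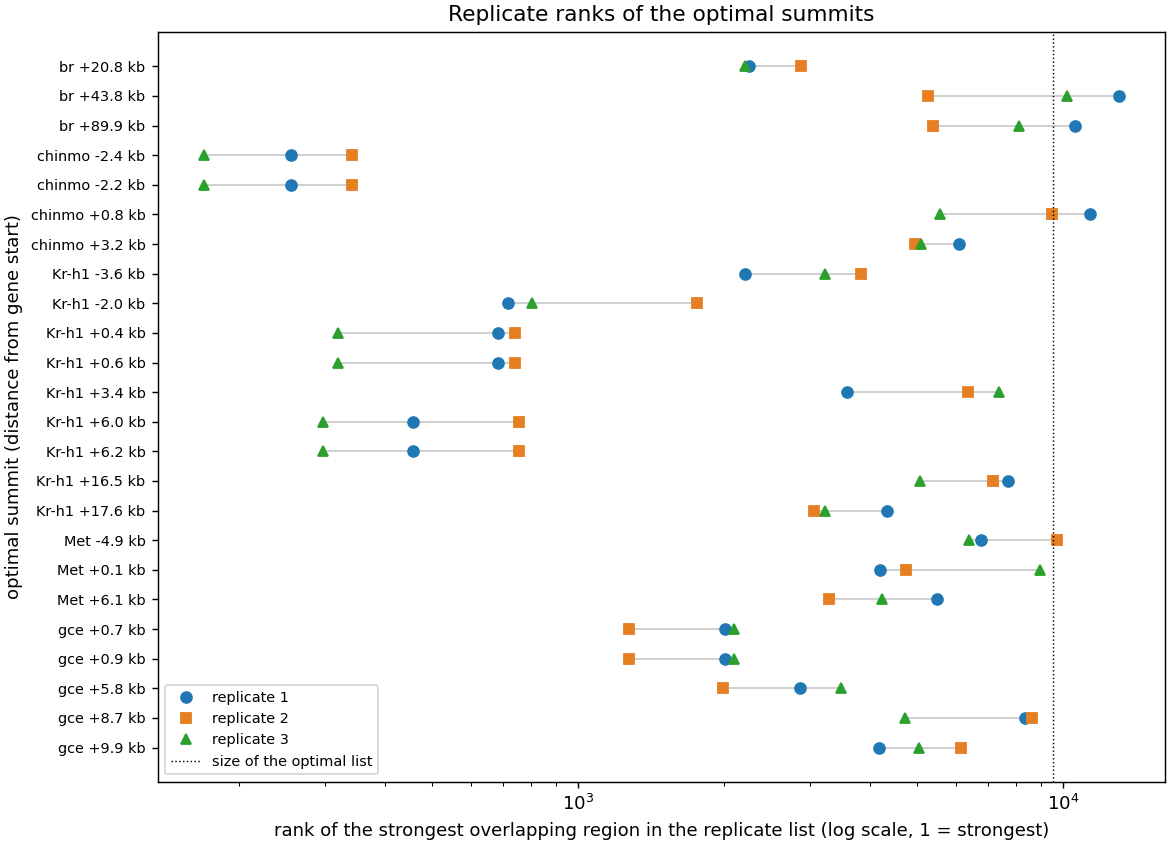
For each of the 24 optimal summits (rows, named by gene and distance from the gene start) the points give the rank of the strongest overlapping region in each replicate list, on a log axis; the dotted line is the size of the optimal list, 9531. Rows of 1 interval share their ranks; chinmo and Kr-h1 hold the lowest ranks, and 4 rows, at br, chinmo and Met, cross the line in at least 1 replicate.

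Of the 24 summits, 20 (83.3%, exact 95% interval 62.6% to 95.3%) overlapped the 9531 strongest regions of all 3 replicates, against 72.9% of the whole optimal list. The background lies inside the interval, and summits of 1 interval share their ranks, so these summits were not told apart from other peaks in this respect. The 4 that did not were the weaker 2 at br, 1 at chinmo and 1 at Met, with signals from 191.5 to 209.8. The optimal list was itself made from these replicates, so part of this overlap is built in.

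By position, most summits lay near start sites or in introns. Within 500 bp of any start site lay 9 of 24 (37.5%, against 44.4% of the optimal list), and in introns another 9 (37.5%, against 40.2%). Intergenic sequence held 3 (12.5%, against 11.6%), 5' UTRs away from starts 2 (8.33%, against 1.23%) and an exon outside these classes 1 (4.17%, against 0.839%). The last 2 shares rest on 3 summits and were not tested. Coding sequence and 3' UTRs held none. Only 3 of the 24 were within 500 bp of a start of the gene itself, at Kr-h1, Met and gce, and 6 were within 1 kb. For 11 of the 24, the nearest start belonged to another gene, 6 times a protein-coding one. Keeping only summits in the gene's body or nearest to its start among coding genes left 19: 9 at Kr-h1 fell to 7, 3 at Met to 1 and 3 at br to 2, while chinmo and gce kept 4 and 5.

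**Figure D3:**
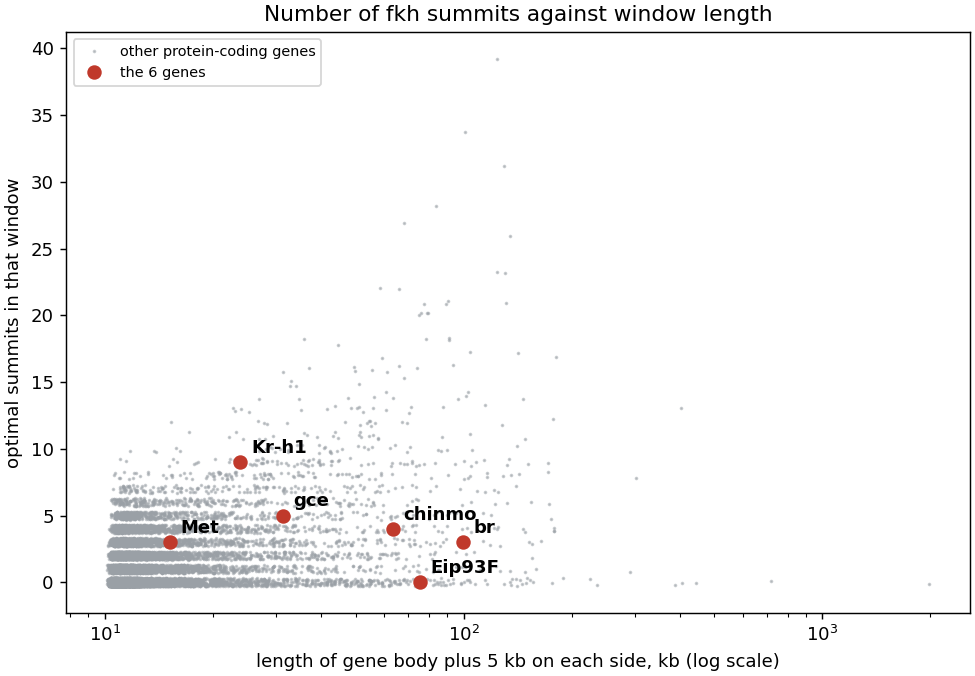
Every protein-coding gene is a point, with the length of its window in kb (log axis) against the number of optimal summits in it; grey points are shifted slightly up or down to separate them, and red points are the 6 genes. Kr-h1 lies high for its length with 9 summits, while br (3) and Eip93F (0) have windows longer than that of chinmo and fewer summits.

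The forkhead word was present within 50 bp of 15 of the 24 summits (62.5%, exact 95% interval 40.6% to 81.2%). Its share over the whole optimal list was 58.5%, and over pooled regions lying clear of every optimal peak 41.7%. The interval holds both, so the genes' summits were not told apart from either by the word. It was found at 6 of 9 summits of Kr-h1, 3 of 4 of chinmo, 2 of 3 of br, 2 of 3 of Met and 2 of 5 of gce. Among the 20 strongest summits of an interval 14 held it. A match gives letters in the sequence and does not show a bound site.

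At chinmo the words were clustered. The strongest summit held 4 words, 3 of them overlapping in a run that starts 4 bp apart and 1 at 9 bp from the summit, as the capitals above show. The first-intron summit at 1652099 held 3, each reading TGTTTAT, at 2, 39 and 46 bp from the summit. Kr-h1 at 6086041 and Met at 11616240 held 2 each. The word lay close to the summit at br, 1 bp from that at 1595929, and at gce, 4 bp from that at 15303548. In Kr-h1 the word of the strongest summit was farther away, at 39 bp, and reads TGTTTGC. The strongest gce summit, of 572.5, had no word within 50 bp.

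**Figure D4:**
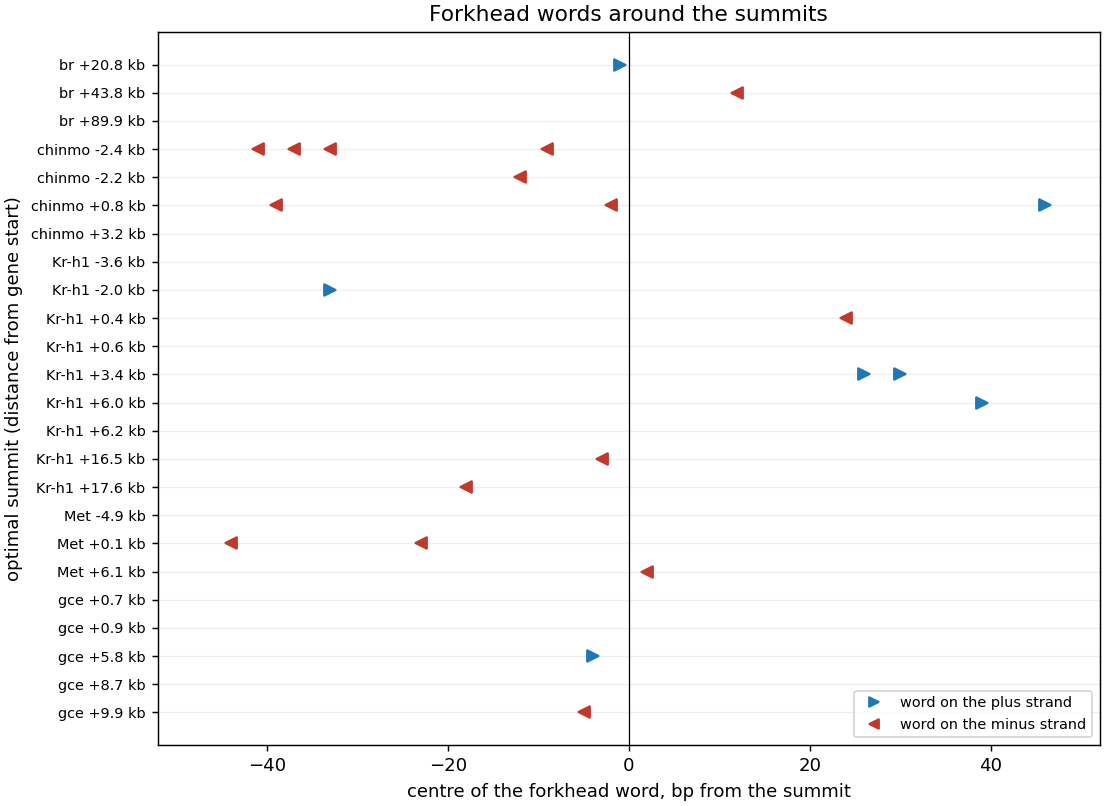
Each row is 1 of the 24 optimal summits and each triangle the centre of a forkhead word, in bp from the summit, pointing right for the plus strand and left for the minus strand. The 22 words are spread over the window, 7 of them within 10 bp of the summit, and 9 rows hold none.

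Of the words other than the forkhead ones, GAGAG, the word of the GAGA factor, was the most frequent, at 6 of 24 summits (25%, against 16.9% of the optimal list). CACGTG, an E-box known to be recognised by bHLH-PAS receptors, was at none of the 24 (1.41% of the optimal list), and its variant CACGCG, known from juvenile hormone response elements, at 2 (3.16% of the list), in an intron of chinmo at 1654476 and at the strongest Kr-h1 summit. The nuclear receptor half-site AGGTCA was at 1 (1.59% of the list), the summit by stai. TATCGATA, which the promoter factor DREF binds, was at 1 (1.70% of the list), the summit at dor. The narrower forkhead word, TGTTTA followed by C or T, was at 4 (16.7%, against 20.6%). All were searched on both strands within 50 bp. None of the other words contains the forkhead word, and the narrower forkhead word is a subset of the main one.

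Other genes of juvenile hormone synthesis, breakdown and response were taken as a list of 19, and 16 had an optimal summit in the same window (84.2%, against 56.6% of protein-coding genes), with a median of 3 summits against 1. The list was drawn up with earlier results of these data known, and the windows of Jheh1, Jheh2 and Jheh3 overlap, so the count is a description. Among the response genes, ftz-f1, the competence factor of the prepupa, had 13 summits with a strongest signal of 1579.5 (rank 100), and the coactivator gene tai had 16, the strongest at 790.5. Both strongest summits lay over 10 kb from the nearest start. The chaperone gene Hsp83 had 4 (strongest 598.3), the nuclear pore gene Nup358 had 6 (920.2), and Chd64, whose protein is reported to bind juvenile hormone response elements, had 7 (325.4). The strongest at Hsp83 and Nup358 lay at the starts of CG14965 and RpS27. Fkbp39, taken here with the response genes, had no optimal summit, and its window held 1 pooled region.

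Synthesis and breakdown genes were mixed. Of the mevalonate pathway that feeds juvenile hormone synthesis, Idi had 3 (strongest 559.0), Hmgs 2 (575.5) and Fpps 1 (528.1). jhamt, which encodes the methyltransferase late in juvenile hormone synthesis, had none, and its window held 3 pooled regions. The epoxide hydrolase genes Jheh1, Jheh2 and Jheh3 had 4, 5 and 3, most of them shared, led by a summit of 1233.8 (rank 254) 206 bp from the start of Jheh1. The esterase gene Jhe had 2 (429.1, nearest to the start of spin) and Jhedup none. The inducible genes JhI-21, JhI-26 and RNaseZ (JhI-1) had 2, 2 and 3, with strongest signals of 231.8, 1168.2 and 624.5. These strongest summits lay nearest to other genes, within 500 bp of the start of PLCXD, 55 bp from that of CG7747 and 1168 bp from that of CAP.

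Most genes of related families also had a summit, again in lists chosen with earlier results known. The share over all protein-coding genes was 56.6%, and it was higher for long windows, reaching 74.8% among genes with windows like that of chinmo, so these counts set no list apart. Of 5 temporal regulators 4 had a summit, mamo (strongest 692.9), ab (592.7), lin-28 (441.1) and Imp (428.7), with those of ab, lin-28 and mamo nearest to the starts of lncRNA:CR43859, Sse and ben, while Syp had neither an optimal summit nor a pooled region. Of 9 other bHLH-PAS genes 7 had one, led by sim (1137.4), tai (790.5), tgo (650.3) and dysf (599.4), with Clk and ss at none. All 12 other BTB genes listed had at least 2, led by Trl (1434.1), bab1 (1411.2), psq (1078.9) and fru (1073.3). Their median was 6.5 summits per gene, against 4 for chinmo and 3 for br, and per 10 kb of window the range ran from 0.331 at ab to 3.46 at Trl, with br (0.301) below it and chinmo (0.631) inside it.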

How the data were processed

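Peak lists from ChIP-seq of 3 biological replicates of 1 group were used, as the authors deposited them on the dm6 build. Every replicate had been called against the same control, the pooled list on all replicates at once, and the optimal list by an IDR step, per the deposited file lists. The sources used here do not give the aligner, the caller or the IDR threshold. The signal per region is the authors' deposited score, whose scale is not stated. The deposited −log10 q-values stood at their maximum of 4.289 in all 9531 optimal peaks, so only signal was used for ranking. The dm3 lists, reads and coverage were not used here.

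Summits (start plus offset) were written 1-based and placed on genes of Ensembl release 115, whose assembly is that of the RefSeq sequence used; transposable elements were left out. Percentiles count ties by their midpoint. A replicate rank is the best among regions that overlap the peak by at least 1 bp, and a summit was recovered where that rank was within the 9531 strongest. Words were matched in Python 3.11.15 within 50 bp. Exact intervals are Clopper-Pearson at 95%. No test across genes was run, as 1 group allows no contrast. The members and lists were chosen with earlier results of these data known. Genes named beside the members were those whose start was nearer to a summit or whose body held it, list members with a summit for juvenile hormone, and the strongest 4 of each other list. Positional, peak-strength, replicate and word settings were varied. Counting, overlap and word steps were tested on simulated data. JhI-1 was matched to RNaseZ through RefSeq synonyms. A gene of the juvenile hormone list and a sequence are not reported here.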

Additional observations from a re-analysis of the deposited data

How the results depend on the processing

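At least 5 of the 6 genes had an optimal summit under every setting tried, and 6 did within 10 or 20 kb and in the pooled list. The total of 24 summits was 15 in gene bodies alone, 14 in the stronger 0.5 of the optimal list, 85 in the pooled list and 41 within 20 kb, a window chosen after the data were seen. The median of the genes' strongest signals, 572.5, was 481.0 with gene bodies alone or windows of 1 or 2 kb, where chinmo lost its upstream peak, and 526.8 within 10 or 20 kb, where Eip93F entered. The share of summits recovered in all 3 replicates, 83.3%, was 100% in the stronger 0.5 and with all regions of each replicate, 31.8% in the pooled list, 54.2% with fewer (0.5 times as many) regions per replicate and also 54.2% where 0.5 of each region had to be shared. For the whole optimal list those last values were 40.9% and 36.7%. The forkhead share, 62.5%, was 16.7% with the narrower word, which stood at 20.6% over the list. Within 25 bp of the summit it was 41.7%, against 36.8% of the list, and within 100 bp 70.8%, against 77%. In the stronger 0.5 of the list it was 78.6%, against 64.2%, so its direction against the list depends on the setting. The optimal list was not remade without a replicate, so leaving 1 out could only lower the counts. Of the 24 summits, 20 to 22 (83.3% to 91.7%) were recovered in both remaining replicates. Of those recovered, 61.9% to 65.0% held the word, and 5 genes kept a summit each time. No paired analysis was possible because there was 1 group. With each interval counted once, chosen after the data were seen, 20 remained. Depth is unknown, so a weak region under the threshold, as at Eip93F, cannot be told from a site missed at this depth.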

Other observations

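Several weaker pooled regions near start sites came close to the weakest optimal signal of 160.0. The first chinmo start had a region 51 bp away with a signal of 152.9 and replicate ranks of 10578, 15418 and 11847. The first gce start had a region 326 bp upstream with 154.5 and ranks of 10013, 9586 and 9226, and an intronic Kr-h1 region at 6090701, 711 bp from the second start, had 157.1 with ranks of 9219, 24477 and 6169. The strongest region left out at any of the 6 genes was at chinmo, 1551 bp upstream of its start, with 158.5. Of the 53 pooled regions at these genes lying clear of every optimal peak, 24 (45.3%, exact 95% interval 31.6% to 59.6%) held the forkhead word, against 41.7% of all such regions.

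In 4 intervals, at chinmo, gce and 2 at Kr-h1, a second summit lay 199 to 206 bp from the first. Over the whole optimal list, 803 neighbouring summits within 1 interval lay a median of 204 bp apart and never less than 199 bp, so the spacing at these genes is that of the list. Within 20 kb, a distance chosen after the data were seen, chinmo had 14 summits in place of 4, and the strongest at Kr-h1 rose from 996.6 to 1311.8.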
